A study of Rattus norvegicus with 16 samples.

Results

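The cytosolic ribosomal protein genes encode the proteins of the large and the small subunit of the cytosolic ribosome. They were taken from the kidney expression table as the rows named Rpl or Rps followed by a digit, together with Rplp0, Rplp1, Rplp2 and Rpsa. Rows named Rps6k, which encode S6 kinases, and rows named only as LOC, AABR or RGD copies were left out. The rule found 98 of 35849 rows, with 88 distinct symbols. Of these rows, 81 carried the symbol of a standard ribosomal protein and the others were paralogs, retrocopies or, for Rps19bp1, a gene named for binding S19. Rpl22, Rps14, Rps19 and Rps26 had no row of their own name.

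RNA was measured by poly(A) RNA sequencing of kidney tissue from male Sprague Dawley rats that were 6 to 8 weeks old at the start, with 4 rats in each of 4 groups. Normal rats received buffer and a normal diet. Diabetic nephropathy (DN) rats were injected with streptozotocin, a toxin of pancreatic beta cells, at 45 mg/kg and fed a diet high in glucose and fat, and only animals whose blood glucose exceeded 16.7 mmol/L were used. The SIN (20 mg/kg) group and the SIN (40 mg/kg) group had the same streptozotocin and diet and were in addition given sinomenine, an alkaloid of a Chinese medicinal plant, at that dose each day for 8 weeks. The model is therefore diabetes from loss of beta cells combined with a diet, and every sinomenine rat is also a diabetic rat. Library totals ran from 19616312 to 25217030 estimated counts. The serial numbers of the libraries ran on within each group, and a difference between groups cannot be told apart from one between sets of libraries.

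Each ribosome carries a single copy of most of these proteins, and their mRNAs are among the most abundant in any cell. The P stalk of the large subunit, built from P0, P1 and P2, recruits the elongation factors. Most ribosomal protein mRNAs begin with a cytosine followed by a short run of pyrimidines, the 5′ terminal oligopyrimidine (TOP) tract, through which mTORC1 and LARP1 govern their translation and stability.

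The start of these genes is shown because the tract is the sequence feature that the family shares. RefSeq promoters of the GRCr8 build were found for 67 of the 88 symbols. This build is not that of the counts, and the windows serve only to show the sequence. Each line below runs 5′ to 3′ on the strand of the gene and holds 20 bases before the annotated start and 10 bases from it, so that base 21 is the start. Capitals mark the longest unbroken run of C or T that has at least 8 bases in a row within the 10 bases before the start and the 10 bases from it.
Rplp0, chr12:46718381-46718410, minus strand: ctggtgaccgcaccgcaCTTCTCTCgccag
Rplp1, chr8:71290863-71290892, minus strand: tgcgcgcaggcgcatgtgaTCCTTTCCTCa
Rps10, chr20:5700735-5700764, minus strand: gctgcgccgcgcacgCCCCTTCCTTTCCag
Rps27, chr2:177964597-177964626, minus strand: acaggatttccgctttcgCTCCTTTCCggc
Rpl28, chr1:78083523-78083552, minus strand: tgtcgccccgcccctagtgTCTTTCTTTCC
Rps15, chr7:10068106-10068135, minus strand: gcagccgctgacaccgCTTCCTTTTCCCag
Rps2, chr10:14251828-14251857, plus strand: gCCTCCCTCTTCTTTTTCTTCgggaaaaca
Rpl23, chr10:83272175-83272204, minus strand: cttgtactaaCTTCCTTTCTgactctttcc
Rplp2, chr1:205975901-205975930, plus strand: atcttcctttcgccgccggacgccgccgag
Rpl36, chr9:1533760-1533789, plus strand: tcttcctgtccggccgccatcggaaagctg
Rpl5, chr14:1995216-1995245, minus strand: cagccactctctttcccacgtcgcttgcgt
Rps6, chr5:106420531-106420560, minus strand: ttcgtgacgcctcctaggcggtcggctgtg
The first 8 windows hold such a run and the last 4 do not. Rplp2 holds a run that lies mostly further upstream. Rpl5 holds a run that begins further upstream and has fewer than 8 bases within the stretch searched. Of 59 promoters of standard ribosomal proteins, 34 (57.6%) held a run on the strand of the gene, against 6.83% of the 33401 promoters of other genes. GGGCGG, searched on both strands of the 300 bases, occurred in 61.0% of the standard promoters and in 11026 of the 33401 others. CCGGAAGT occurred on either strand in 11.9% and 3.79%, AAGATGGC on either strand in 6.78% and 3.16%, and TATAAA in the 60 bases before the start in 6.78% and 2.6%. None of these motifs contains another. An annotated start that is off by a few bases moves the window, so a missing run says only that these letters were not found there.

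The ribosomal protein genes together took up a larger share of the kidney transcriptome in diabetic rats than in normal rats. In normal rats the 98 rows held 1.62%, 1.49%, 1.66% and 1.57% of all counts. In DN rats they held 1.95%, 2.06%, 1.90% and 1.89%. In SIN (20 mg/kg) rats the share was 2.19%, 2.02%, 1.98% and 2.03%, and in SIN (40 mg/kg) rats it was 1.79%, 1.93%, 1.99% and 1.98%. Every diabetic rat, treated or not, lay above every normal rat, and the 3 diabetic groups overlapped. The group means were 1.59% ± 0.071 (SD, n = 4) in normal, 1.95% ± 0.077 in DN, 2.06% ± 0.092 in SIN (20 mg/kg) and 1.92% ± 0.092 in SIN (40 mg/kg) rats. Outside the mitochondrially encoded genes, which took 9.86% to 14.5% of counts, the means were 1.80%, 2.24%, 2.34% and 2.16%. Because bulk tissue was sequenced, a change in the number of cells of a type and a change in RNA per cell cannot be told apart.

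**Figure D1:**
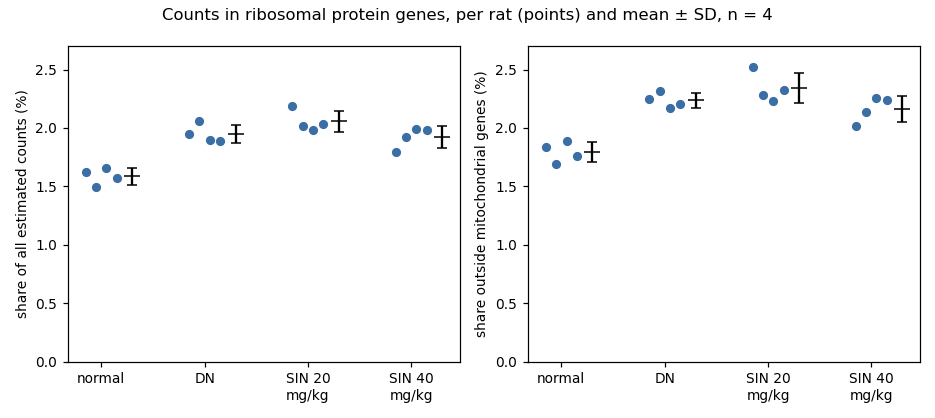
Share of counts in the 98 ribosomal protein rows, for each rat (points) and as mean ± SD (n = 4), of all estimated counts (left) and of counts outside mitochondrially encoded genes (right), in percent. In both panels the 4 normal rats lie below all 12 diabetic rats.

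The comparison of DN with normal rats asks how the diabetic kidney differs in these transcripts. Of the 82 ribosomal protein rows with enough counts to be tested, 38 rose in DN rats at an adjusted p under 0.05 (edgeR quasi-likelihood test) and 0 fell. These are 46.3% of the rows, whereas 8.74% of all 15775 genes tested rose and 10.8% fell. The rises were small. The median log2 fold change of the 82 rows was 0.31, an increase of 24.1%, beside 0.0016 over all genes, and 69 rows had a positive value. When the log2 fold change also had to reach 1 in size, 0 rows passed, against 3.8% of all genes. At an unadjusted p under 0.05, 48 rows were higher and 1 was lower, against 17.5% and 19.4% of all genes. In 44 rows every DN rat lay above every normal rat and in 0 rows below, against 11.2% and 13.1% of all genes.

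**Figure D2:**
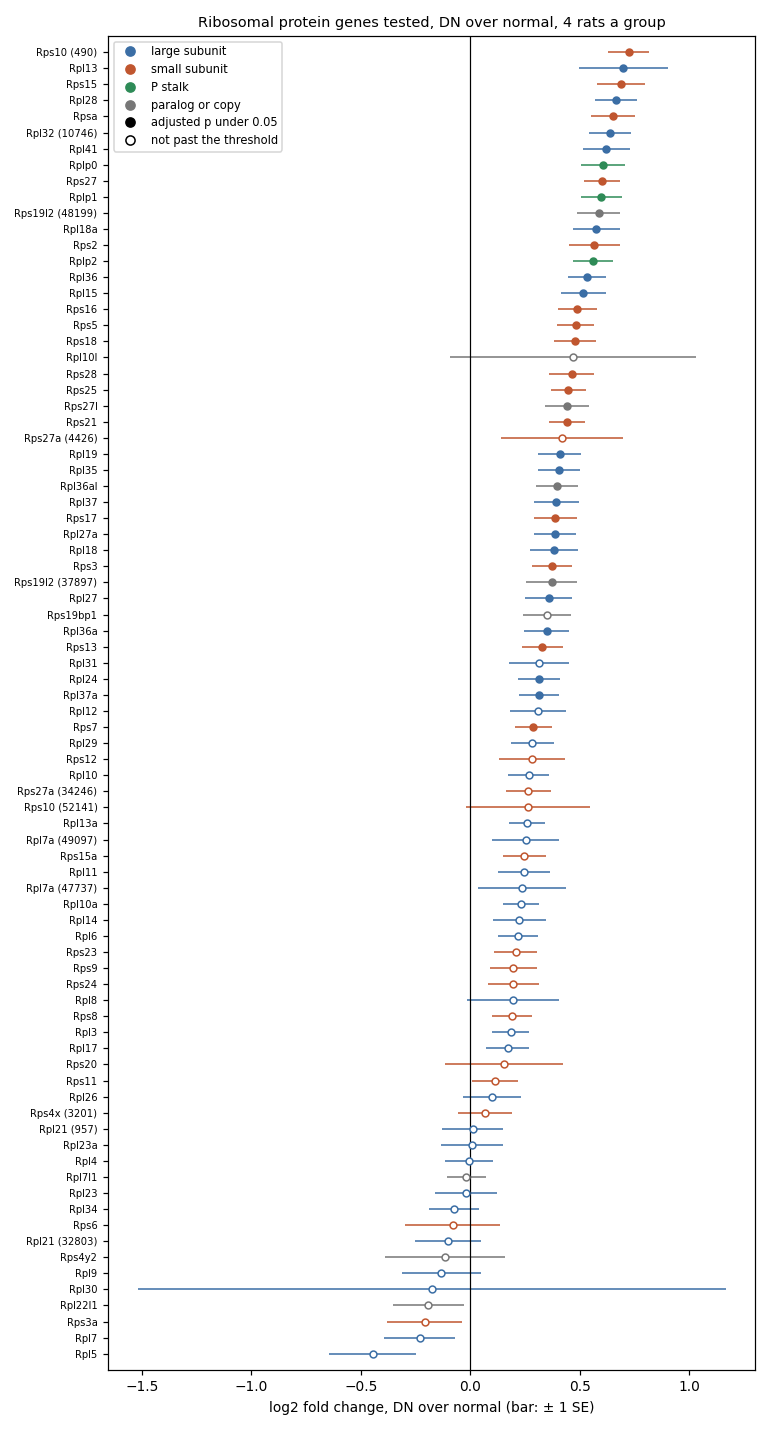
Log2 fold change, DN over normal, of the 82 tested ribosomal protein rows (points, with ± 1 SE; 4 rats a group), coloured by subunit and filled where the adjusted p is under 0.05; a number in brackets after a name is the end of the row's Ensembl gene ID. Values run from -0.45 for Rpl5 to 0.72 for Rps10, and all 38 filled points lie to the right of 0.

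The P stalk rose as a whole. Rplp0, which anchors the stalk on the ribosomal RNA, stood at 805, 784, 676 and 699 counts per 1000000 (CPM, on library sizes scaled by TMM) in normal rats and at 1122, 1202, 1049 and 1127 CPM in DN rats. The groups did not overlap, and the log2 fold change was 0.61 ± 0.10 (SE), with an adjusted p of 0.00734 (edgeR). Rplp1, a stalk protein that binds P0 as a dimer with P2, went from 426, 417, 380 and 356 CPM to 575, 609, 596 and 603 CPM, a log2 fold change of 0.60 ± 0.094 (adjusted p = 0.00599, edgeR). Its partner Rplp2 went from 80.4, 69.1, 71.6 and 68.1 CPM to 103, 106, 99.1 and 117 CPM, a log2 fold change of 0.56 ± 0.091 (adjusted p = 0.00695, edgeR). For all 3 genes the lowest DN rat lay above the highest normal rat.

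In the small subunit 15 of 29 tested rows rose, with a median log2 fold change of 0.33. Rps10, a protein of the 40S head, had the largest value of all rows. It stood at 146, 156, 131 and 131 CPM in normal rats and at 224, 253, 226 and 226 CPM in DN rats, a log2 fold change of 0.72 ± 0.094 (adjusted p = 0.00386, edgeR). Rpsa, the laminin receptor precursor that is also a protein of the 40S subunit, stood at 711, 656, 582 and 629 CPM in normal and at 977, 971, 1028 and 1062 CPM in DN rats. Its log2 fold change was 0.65 ± 0.099 (adjusted p = 0.00542, edgeR). Rps27, a zinc-finger protein of the 40S subunit, was nearly constant in normal rats at 129, 131, 128 and 129 CPM and reached 209, 184, 202 and 185 CPM in DN rats. Rps15 stood at 309, 316, 252 and 248 CPM in normal and at 459, 478, 426 and 442 CPM in DN rats. Rps3, which forms part of the mRNA entry channel, rose by a smaller amount, from 228 to 263 CPM over normal rats to 300 to 340 CPM over DN rats (log2 fold change 0.37 ± 0.091, adjusted p = 0.0244, edgeR), and it did not pass without normal replicate 3 or 4 or without DN replicate 1 or 2. In none of these 5 genes did the groups overlap. Rps4x, the X-linked S4 gene, stood at 244 to 316 and 259 to 350 CPM (adjusted p = 0.723), and the main Rps27a row, which encodes S27A fused to ubiquitin, at 146 to 161 and 159 to 214 CPM (adjusted p = 0.0941).

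In the large subunit 16 of 41 tested rows rose, with a median log2 fold change of 0.26. Rpl28 stood at 225, 219, 201 and 200 CPM in normal rats and at 349, 351, 292 and 343 CPM in DN rats, with a log2 fold change of 0.66 ± 0.095 (adjusted p = 0.00479, edgeR). Rpl32 went from 230, 204, 185 and 192 CPM to 333, 316, 299 and 309 CPM, and Rpl36 from 135, 132, 123 and 127 CPM to 183, 180, 178 and 205 CPM. For both genes every DN rat lay above every normal rat. Rpl41, which encodes the shortest protein of the ribosome and had the highest level per kilobase of all rows (1114 CPM per kb over the 16 rats), stood at 362, 377, 353 and 336 CPM in normal and at 476, 639, 544 and 533 CPM in DN rats. Its log2 fold change was 0.62 ± 0.11 (adjusted p = 0.00833, edgeR). Rplp1 (1053 CPM per kb) and Rps2 (936 CPM per kb) came next in level per kilobase. Rpl13 also passed (log2 fold change 0.70 ± 0.20, adjusted p = 0.0401, edgeR), but its groups overlapped at 3.69 to 6.10 and 5.91 to 8.86 CPM, the row held only 1.57% of the counts in rows described as L13, and the call was lost when any rat other than normal replicate 1 or DN replicate 3 was left out.

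Other large-subunit genes rose less or not at all. Rpl3, which sits close to the peptidyl transferase centre, stood at 336 to 373 CPM in normal and 383 to 417 CPM in DN rats, and Rpl10, which is loaded late in 60S maturation, at 298 to 339 and 351 to 413 CPM. Although neither gene overlapped between groups, the adjusted p was 0.146 for Rpl3 and 0.0716 for Rpl10. Rpl13a, known for its part in interferon-induced translational silencing, had a log2 fold change of 0.26 ± 0.082 and an adjusted p of 0.0502 (edgeR). Rpl12 had a log2 fold change of 0.31 ± 0.13 (adjusted p = 0.110, edgeR).

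Rpl5 and Rpl11 form, with 5S rRNA, the particle that binds MDM2 when ribosome assembly is disturbed. Rpl11 stood at 183, 137, 180 and 170 CPM in normal and at 180, 209, 187 and 217 CPM in DN rats (log2 fold change 0.24 ± 0.12, adjusted p = 0.157, edgeR). Rpl5 had the lowest value of all rows. It stood at 242, 151, 285 and 248 CPM in normal rats and at 127, 176, 182 and 193 CPM in DN rats, so that normal replicate 2 lay within the DN range. The log2 fold change was -0.45 ± 0.20 with an unadjusted p of 0.049 and an adjusted p of 0.134 (edgeR). Without normal replicate 2 it passed as lower, with a log2 fold change of -0.61 and an adjusted p of 0.0232. Rpl7 (log2 fold change -0.23 ± 0.16), Rps3a (-0.21 ± 0.17) and Rps6, the target of S6 kinase (-0.08 ± 0.22), likewise did not pass, and their groups overlapped.

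**Figure D3:**
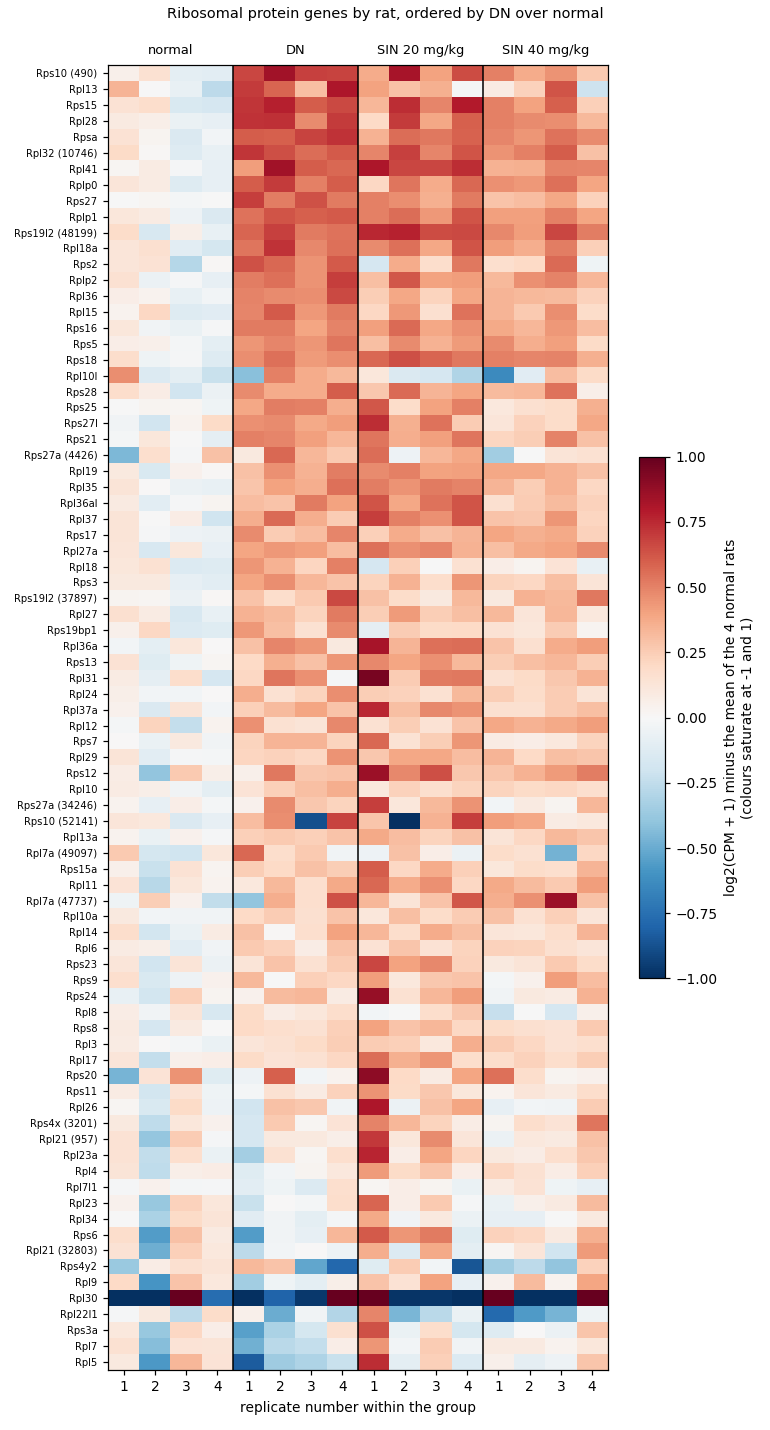
Log2(CPM + 1) of the 82 ribosomal protein rows tested in DN over normal, one column per rat, minus the mean of the 4 normal rats, ordered by the log2 fold change of DN over normal. Rows in the upper part are higher in almost all diabetic rats, the lower rows (Rpl5, Rpl7, Rps3a) are lowest in normal replicate 2 and in DN replicate 1, and the Rpl30 row stands apart in 5 rats.

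Of 9 tested paralog or copy rows, counted with Rps19bp1, 4 rose, namely Rpl36al, Rps27l and both rows of Rps19l2. Rps27l, the S27-like paralog known as a p53 target, stood at 20.6 to 27.2 CPM in normal and at 31.05 to 33.1 CPM in DN rats (log2 fold change 0.44 ± 0.10, adjusted p = 0.0199, edgeR). It did not pass without normal replicate 1 or 3 or without DN replicate 2. Rpl22l1, the L22 paralog, stood at 13.04 to 18.14 and 10.97 to 16.51 CPM (adjusted p = 0.414), and Rpl7l1, which shares its name with L7 but acts in ribosome assembly, at 94.0 to 98.3 and 86.3 to 107 CPM (adjusted p = 0.897). Rps4y2 did not pass (adjusted p = 0.788), and Rps19bp1, at 41.4 to 53.1 and 51.0 to 63.7 CPM, had an adjusted p of 0.0524 (edgeR). Rpl10l, a testis paralog of L10, reached at most 1.31 CPM in any rat. Rpl3l, the L3 paralog of striated muscle, and Rpl39l were under 0.5 CPM in every rat and were not tested.

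The number of rows that rose depended on single rats. Without normal replicate 4 the number of rows that rose was 18, without normal replicate 3 it was 21 and without DN replicate 2 it was 23, with 0 rows lower in each case. The number of all genes called in either direction moved with it. It was 3074 of 15775 with all 8 rats, 769 of 15978 without normal replicate 4, 987 of 15953 without normal replicate 3 and 1308 of 16016 without DN replicate 2. The median log2 fold change of the rows stayed between 0.28 and 0.33 when any 1 of the 8 rats was left out.

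Reads from ribosomal protein genes are hard to assign, because the rat genome holds many near-identical retrocopies. A further 493 rows were described as ribosomal proteins under other names, and they held 14.01% of the counts of these rows and the 98 rows together. For 11 proteins less than 10% of the counts lay in a row of their own symbol. For L8, L13, S20, S29, L38 and L39 a LOC row held nearly all counts. When the counts of a protein were summed over the rows of its own symbol and these further rows, a choice made after seeing the data, 40 of 77 proteins rose in DN rats and 0 fell, with a median log2 fold change of 0.31 (edgeR), while 8.76% of all genes in that fit rose. Rps19l2, Rpl36al and the other paralog rows described above were not part of the sums. L39 (log2 fold change 0.64 ± 0.11, adjusted p = 0.00725), L13 (0.55 ± 0.091, adjusted p = 0.00737) and L8 (0.39 ± 0.090, adjusted p = 0.0196) passed on these sums, as did S29, S26, L38 and L35A. L22 (0.20 ± 0.11), S14 (0.35 ± 0.13) and S20 (0.19 ± 0.14) did not pass, and L5 had a value of -0.44 ± 0.20. S19 had the lowest value of the sums, -0.53 ± 0.21 (adjusted p = 0.104, edgeR). Its sum was low, at 5.70 to 11.1 CPM in normal and 4.34 to 7.49 CPM in DN rats, scaled by library totals.

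The Rpl30 row varied widely between rats. Its own row held 32.2 to 59.1 counts in 11 of the 16 rats but 1170 in normal replicate 3, 934 in DN replicate 4, 1995 in SIN (20 mg/kg) replicate 1, and 797 and 1133 in SIN (40 mg/kg) replicates 1 and 4. The L30-like row LOC100362027 held 776 to 2359 counts, and in 4 of these 5 rats was lower than in the rats of their group not named here, but in SIN (20 mg/kg) replicate 1 it was at its own highest count of 2359. The sum of both rows ran from 1436 to 4354, with the highest sum in that rat and at most 2490 elsewhere. Whether reads passed between the rows was not tested. The second Rps10 row was at 0 in SIN (20 mg/kg) replicate 2, where the first Rps10 row reached its highest value of 6272 counts. The sum of both Rps10 rows was 3359 to 3674 counts in normal and 5281 to 5614 counts in DN rats. Fold changes of these rows taken alone are uncertain.

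Some other genes of the translation machinery also rose in DN rats, and the counts below stand beside 8.74% of all genes higher and 10.8% lower. Among translation factors and other genes known for TOP mRNAs, 8 of 18 tested rose and 0 fell, with a median log2 fold change of 0.14. Eef1g of the eEF1 exchange factor rose by 0.59 ± 0.097 (adjusted p = 0.0071, edgeR) and Rack1, a scaffold on the 40S subunit, by 0.49 ± 0.10. Eef2, which drives translocation, also rose (0.38 ± 0.12, adjusted p = 0.0485, edgeR). The TOP genes Eef1a1 (-0.05 ± 0.11), Tpt1 (-0.09 ± 0.14), Npm1 (-0.36 ± 0.15) and Pabpc1 (-0.04 ± 0.089) did not pass. Of 30 ribosome biogenesis genes 6 rose, among them the pseudouridylation factors Dkc1 (0.59 ± 0.15) and Nhp2 (0.54 ± 0.13), and 1, the helicase Ddx21 (-0.29 ± 0.080), fell. Of 14 genes of RNA polymerase I and its factors 3 rose, Polr1a, Polr1c and Cd3eap. Of 23 genes in mTORC1 and MYC control 2 rose, the inhibitors Tsc2 (0.40 ± 0.12) and Akt1s1 (0.45 ± 0.11), and 2 fell, the S6 kinase gene Rps6kb1 (-0.63 ± 0.17) and the MYC antagonist Mxi1 (-0.54 ± 0.12), which in each direction is close to the share over all genes. The median log2 fold change was 0.16 for ribosome biogenesis, 0.09 for RNA polymerase I and 0.19 for mTORC1 and MYC control. In all 3 comparisons among diabetic groups 0 genes of the lists in this paragraph passed.

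Markers of kidney cell types were also compared between DN and normal rats, and few of them passed. The counts below stand beside 8.74% of all genes higher and 10.8% lower. All 7 proximal tubule markers were expressed, none passed, and their summed level was 10179 to 14789 CPM in normal and 10202 to 14315 CPM in DN rats. Of the loop of Henle markers Umod and Slc12a1, Umod fell, and their sum was 3376 to 4424 CPM in normal and 1863 to 3213 CPM in DN rats. Of 4 collecting duct markers 1, Atp6v1b1, fell, while the summed level of the list was 433 to 1034 and 739 to 1797 CPM. Of 6 fibroblast and smooth muscle markers 2 rose (Col1a1 and Pdgfrb), at 236 to 354 and 290 to 769 CPM in sum. Of 9 leukocyte markers tested 1, Ptprc, fell (570 to 1138 and 513 to 691 CPM in sum), of 3 red cell markers 1, Alas2, fell, and none of 5 podocyte, 2 distal tubule, 3 endothelial and 3 fat markers passed. Podocyte markers summed to 436 to 580 CPM in normal and 304 to 545 CPM in DN rats, and distal tubule markers to 442 to 615 and 373 to 569 CPM. No list had a gene of the table at 0 in every rat. The part of these differences in the ribosomal protein result was not tested.

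The comparisons of each sinomenine dose with DN rats ask whether the compound alters the diabetic kidney, and both use the same 4 DN rats. For SIN (20 mg/kg) over DN, 0 of 82 rows passed at an adjusted p under 0.05 (edgeR), as did 0 of all 15724 genes (0%). DESeq2 and the edgeR exact test also called 0 rows, while they called 1.4% and 0.566% of all genes. At an unadjusted p under 0.05, 6 rows were higher and 3 were lower, against 9.2% and 6.24% of all genes, and the median log2 fold change of the rows was 0.06. In 2 rows, Rpl5 and the first Rpl21 row, every treated rat lay above every DN rat (5.34% of all genes), and in 2 rows, Rpl36 and, by a minimal gap, Rpsa, below (3.65%).

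For SIN (40 mg/kg) over DN, 0 of 82 rows passed by the edgeR quasi-likelihood test (0% of 15530 genes) and 0 by its exact test, which called 1.04% of all genes. DESeq2 called 3 rows lower and 0 higher, or 3.66% of the rows, beside 2.73% of all genes called in either direction and 1.26% called lower. The rows were Rps10 (log2 fold change -0.33 ± 0.092, adjusted p = 0.0196), Rps27 (-0.30 ± 0.086, adjusted p = 0.0231) and Rpl18 (-0.36 ± 0.098, adjusted p = 0.0191). At an unadjusted p under 0.05, 3 rows were higher and 9 lower, against 9.9% and 7.21% of all genes. The median log2 fold change was -0.07, and 57 of 82 rows had a negative value. In 1 row, Rpl5, every treated rat lay above every DN rat (6.43% of all genes). In 9 rows, which include Rpl18, Rplp1, Rps10, Rps15, Rps27 and Rpsa, every treated rat lay below every DN rat (3.99%).

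Rpl5 stood at 376, 211, 266 and 205 CPM in SIN (20 mg/kg) rats and at 234, 212, 217 and 274 CPM in SIN (40 mg/kg) rats, against 127 to 193 CPM in DN rats. Both treated groups lay above the DN range and within or above the normal range. Rpl5 had the lowest fold change of all rows in these same DN rats, and higher values in other rats can follow from that choice alone. The log2 fold change over DN was 0.64 ± 0.21 at 20 mg/kg (unadjusted p = 0.0124, adjusted p = 0.271) and 0.47 ± 0.14 at 40 mg/kg (unadjusted p = 0.00893, adjusted p = 0.201), both by edgeR. Rpl18 stood at 365, 342, 311 and 381 CPM in DN rats, at 239, 315, 267 and 298 CPM at 20 mg/kg and at 281, 272, 295 and 254 CPM at 40 mg/kg. The group at 20 mg/kg overlapped the DN range and the group at 40 mg/kg lay below it. Its log2 fold changes over DN were -0.33 ± 0.11 (adjusted p = 0.272) and -0.34 ± 0.094 (adjusted p = 0.196) by edgeR. Rps2, a protein of the mRNA entry channel, stood at 930 to 1057 CPM in DN rats, 605 to 979 CPM at 20 mg/kg and 660 to 1005 CPM at 40 mg/kg, and each treated range overlapped the DN range.

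Of the genes that rose most in DN rats, the 4 described here stood in the treated rats between the normal and the DN levels or within the DN range. They were picked for high values in the same DN rats that serve as the reference here. Values nearer to normal in other diabetic rats can follow from that choice alone, and an effect of sinomenine cannot be read from them. Rps10 stood at 182, 249, 186 and 222 CPM at 20 mg/kg and at 200, 182, 193 and 169 CPM at 40 mg/kg, against 131 to 156 CPM in normal and 224 to 253 CPM in DN rats. All 8 treated rats lay above the normal range, and the 4 rats at 40 mg/kg lay below the DN range. Rps27 stood at 184, 178, 165 and 185 CPM at 20 mg/kg and at 157, 160, 170 and 151 CPM at 40 mg/kg, so that it too lay between the normal and the DN range at 40 mg/kg. Rpsa stood at 816, 948, 928 and 970 CPM at 20 mg/kg and at 903, 874, 936 and 894 CPM at 40 mg/kg, which is below every DN rat and above every normal rat. At 20 mg/kg the gap was minimal, with a highest value of 969.7 CPM against a lowest DN value of 970.6 CPM. On the SA sums, scaled by library totals, these 2 groups overlapped (up to 969.3 and from 967.4 CPM). Rplp0, at 854, 1070, 956 and 1100 CPM and at 1014, 1000, 1081 and 974 CPM, overlapped the DN range of 1049 to 1202 CPM at both doses.

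Many rows of the treated rats lay wholly above the normal range. In SIN (20 mg/kg) rats 49 of 82 rows had every rat above every normal rat and 0 below, against 6.56% and 7.15% of all genes. In SIN (40 mg/kg) rats the counts were 42 of 83 rows above and 0 below, against 7.17% and 7.1%. These groups were not fitted against normal rats.

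**Figure D4:**
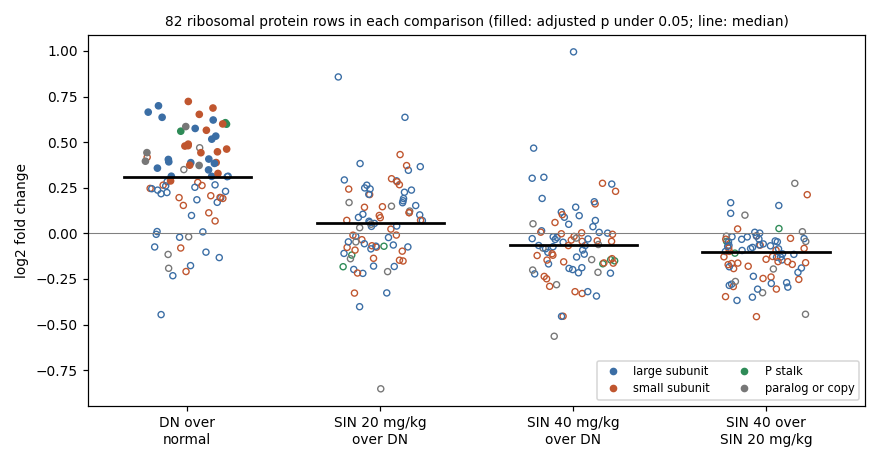
Log2 fold change of the 82 ribosomal protein rows (circles, coloured by subunit, spread sideways to separate them) in each of the 4 comparisons, filled where the adjusted p is under 0.05, with the median as a line. The medians are 0.31, 0.06, -0.07 and -0.10, and filled circles occur in DN over normal alone; SIN 20 mg/kg over DN and SIN 40 mg/kg over DN share the 4 DN rats.

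The comparison of the doses, SIN (40 mg/kg) over SIN (20 mg/kg), also gave 0 of 82 rows at an adjusted p under 0.05 by both edgeR tests and 0 by DESeq2. Over all 15657 genes the quasi-likelihood test called 1 (0.00639%), the exact test 0.0383% and DESeq2 0.109%. At an unadjusted p under 0.05, 12 rows were lower and 0 higher, against 2.57% and 2.41% of all genes. The median log2 fold change was -0.10, and 71 of 82 rows had a negative value. Rpl41 stood at 627, 569, 568 and 596 CPM at 20 mg/kg and at 454, 457, 505 and 502 CPM at 40 mg/kg, with no overlap, a log2 fold change of -0.31 ± 0.088 and an adjusted p of 0.961 (edgeR). Rpl31 (-0.35 ± 0.14) and Rpl26 (-0.37 ± 0.17) were higher in SIN (20 mg/kg) replicate 1, at 251 and 398 CPM, than in any other rat.

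The 1 gene that passed between the doses was a row described as L12-like, LOC102555453, singled out after its value was seen. It held 1977, 2258, 1628 and 1854 counts at 20 mg/kg and 813, 832, 1016 and 812 counts at 40 mg/kg, a log2 fold change of -1.04 ± 0.090 (adjusted p = 0.00584, edgeR). Rpl12 itself went the other way, from 210 to 232 CPM at 20 mg/kg to 241 to 254 CPM at 40 mg/kg, without overlap (log2 fold change 0.17 ± 0.078, adjusted p = 0.961). The sum of both rows was 5782 to 7929 and 5526 to 6321 counts, and the sum over all L12 rows gave a log2 fold change of -0.12 ± 0.078 (adjusted p = 0.968, edgeR). LOC102555453 also varied widely within the other groups. It held 1668, 644, 1553 and 682 counts in normal rats and 996, 1762, 1803 and 989 counts in DN rats. In both groups the rats with lower counts of this row had higher counts of Rpl12. Whether reads passed between the rows was not tested.

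The ribosomal protein genes did not vary as 1 block between rats of the same group. After the group means were removed, the correlation over 16 rats of each of 73 standard rows with the mean of the others had a median of 0.32 and ran from -0.56 to 0.93. Other genes had a median of -0.01 against the mean of the standard rows, with 5th and 95th percentiles of -0.63 and 0.67. An r above 0.7 was found in 21.9% of the standard rows and 3.6% of other genes, and an r below 0 in 34.2% and 51.0%. The standard rows thus varied together more often than other genes did with them, but not all of them. Rpl5, the row with the lowest fold change in DN rats, is taken as the reference here. Rps3a (r = 0.93), Rpl7 (r = 0.91) and Rps6 (r = 0.86) followed Rpl5, whereas Rps2 (r = -0.75) and Rplp0 (r = -0.70) ran against it and with each other (r = 0.87). An r above 0.7 with Rpl5 was found in 22 standard rows and in 10.1% of other genes, and an r below -0.7 in 4 standard rows and 7.16% of other genes. All values come from the same 16 libraries and the same scaling, and r is given as a description.

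Few of the rows that followed Rpl5 within groups rose in DN rats, and the same order was seen over other genes. Of the 22 rows with r above 0.7, 1 rose, Rpl37a, and the median log2 fold change of DN over normal was 0.04. Of 19 rows with r from 0 to 0.7, 9 rose, with a median of 0.31, and of 31 rows with r below 0, 24 rose, with a median of 0.48. Over the other genes tested, the shares that rose in these bands were 0.061%, 1.89% and 15.3%, with medians of -0.48, -0.20 and 0.20. The gradient is therefore not particular to the ribosomal protein rows, whose share was the higher one in each band. The normal and DN rats enter both measures. Within groups the level of Rpl5 had an r of 0.25 with the mitochondrial share and of -0.07 with the library total. On the sums over the rows of a protein, S3A had an r of 0.98 and S6 of 0.88 with L5, and S2 of -0.76. Genes with and without the run of pyrimidines had like medians in DN rats. Tested standard genes with a run had a median log2 fold change of 0.31 in DN rats (32 genes, 17 of them called), and those with no run also had 0.31 (23 genes, 10 called). A gene on several rows entered by its first row. Rps27a, with no run, thus entered by its low row (log2 fold change 0.42) and not by its main row (0.26), and the median with no run would be lower with the main row.

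**Figure D5:**
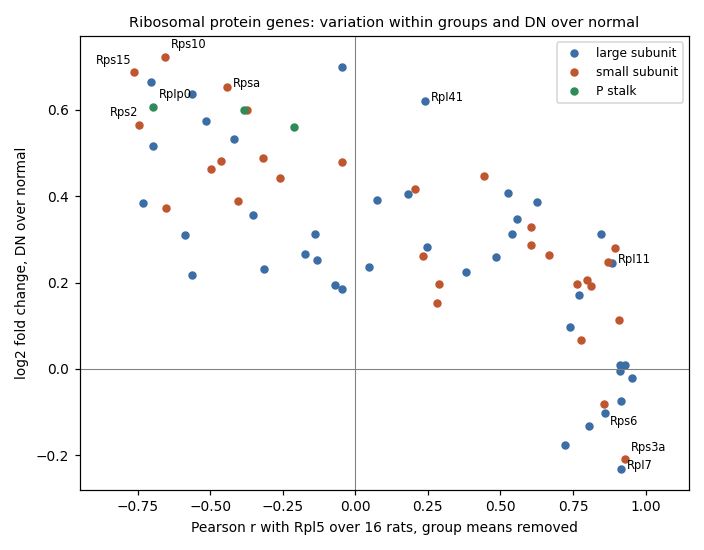
For each standard ribosomal protein row other than Rpl5, the Pearson r with Rpl5 over 16 rats after removal of group means (x axis) and the log2 fold change of DN over normal (y axis), coloured by subunit. Rows with r above 0.7 lie between -0.23 and 0.31, and rows with r below 0 lie between 0.18 and 0.72.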

How the data were processed

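Kidney RNA of 16 rats was sequenced after oligo(dT) enrichment. The authors used SeqPrep and Sickle for trimming and TopHat for alignment to the Ensembl rat genome Rnor_6.0. The submitters' processing notes also name Bowtie, RSEM and edgeR, with no role. The deposited table holds estimated counts per gene that need not be whole numbers. Strand handling is not given in the sources used here. Of the per-sample columns, 4 belong to libraries with no label and were not used. The deposited group means served only to check which columns belong to which group. They differed from the means of the columns used by at most 5e-04.

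Estimated counts were rounded. Genes were filtered with filterByExpr over the 8 rats compared, scaled by TMM and tested with the edgeR quasi-likelihood test (edgeR 4.0.16, R 4.3.3), with Benjamini-Hochberg adjustment over all genes tested. CPM values use TMM-scaled library sizes of all 16 rats. The steps were tested on simulated data. DESeq2 1.42.0, other scalings and filters, and the omission of each rat were alternatives. Members, gene lists and tests were chosen with earlier results of these data known. Genes were named by adjusted p, by extreme fold change, by separation of groups and from a list of well-known members; Rps2 in DN over normal, Rps27 and Rplp0 under sinomenine and the genes of the within-group account were added after their values were seen. The p-values measure the spread between the rats sequenced. The values of 1 gene of the translation list are not reported here.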

Additional observations from a re-analysis of the deposited data

Results flagged for a closer look

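In 168 groups of 4 rats (the share of counts, the mitochondrial share and each named gene), 11 held a rat far from the other 3 by Dixon's criterion. Chance alone flags about 1 in 20 groups, here 8.4. The Rpl30 row gave 3 of them, with 51.4 CPM in normal replicate 3, 44.5 CPM in DN replicate 4 and 85.8 CPM in SIN (20 mg/kg) replicate 1, where the other rats of each group had at most 2.62 CPM. Rpl7 stood at 293 CPM in normal replicate 2, against 432 to 438 CPM in the others, and Rpl7l1 in the same rat at 98.3 CPM, against at most 94.4 CPM. In DN rats, Rpl28 stood at 292 CPM in replicate 3 (others from 343 to 351 CPM), the first Rps10 row at 253 CPM in replicate 2 (others up to 226 CPM) and the first Rpl21 row at 122 CPM in replicate 1 (others from 143 to 147 CPM). In SIN (40 mg/kg) rats, Rpl26 stood at 271 CPM in replicate 4 (others up to 223 CPM) and Rplp1 at 559 CPM in replicate 3 (others up to 523 CPM). Rpl10l, a low row, stood at 1.26 CPM in normal replicate 1, against at most 0.527 CPM in the others.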

How the results depend on the processing

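For DN over normal, the number of ribosomal protein rows that rose was 38 as reported and 29 to 47 under RLE or upper-quartile scaling, TMM factors without these rows and the mitochondrial genes, library totals only, DESeq2, the edgeR exact test, other filters on low counts and a fit of all 16 rats. All genes called in either direction numbered 2570 (no filter, 22177 tested) to 4160 (DESeq2, 15775 tested) under these settings. The number of rows that rose was 18 to 34 when a rat was left out, beside 769 to 3781 of all genes called. It was 21 with the replicate number as a block, where 1325 of all genes passed against 3074. Same-numbered rats did not deviate together (r from -0.24 to 0.06), so the numbers do not pair the rats, and the block leaves fewer residual degrees of freedom. A row that fell, Rpl5, was seen only without normal replicate 2, where 32 rows rose. DESeq2 called 3 rows in SIN (40 mg/kg) over DN, where edgeR called 0. All other settings gave 0 rows in the 3 comparisons among diabetic groups, and the median log2 fold changes moved by less than the spread between rats. Among 934 values of single named genes none that passed changed its direction. Rpl13, Rps3 and Rps27l lost their call under the block, and Rpl13 also without a filter and in most omissions of a rat. Rpl3, Rpl10, Rpl13a, Rps27a and Rps19bp1 gained a call under DESeq2. Rows that share reads with copies limit what a single row can show, and with 4 rats a group small changes are missed.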
